A study of Capra hircus with 24 samples.

Results

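The transcripts of 3 whey proteins and of 3 proteins that make lactose were followed across milk and blood of dairy goats. They are α-lactalbumin (LALBA, cattle transcript NM_174378), β-lactoglobulin (PAEP, NM_173929), glycosylation-dependent cell adhesion molecule 1 (GLYCAM1, NM_174828), β-1,4-galactosyltransferase 1 (B4GALT1, NM_177512), the glucose transporter GLUT1 (SLC2A1, NM_174602) and UDP-glucose pyrophosphorylase 2 (UGP2, NM_174212). All probes annotated with these 6 transcripts were taken, which gave 6 of the 26748 annotation entries and 17 of the 43653 probes of the array: 2 for LALBA, 3 for PAEP, 2 for GLYCAM1, 3 for B4GALT1, 3 for SLC2A1 and 4 for UGP2. The probes of these transcripts were taken by their annotation alone. All 17 passed the filter on dim probes, which kept a probe if the scanner called its Cy5 signal well above background in 4 of 4 arrays of some group.

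RNA came from healthy female goats in lactation 3, 4 of the breed Polish White Improved (PWI) and 4 of the breed Polish Fawn Improved (PFI). Each breed was sampled as milk somatic cells (MSC, the cells found in milk), nuclear cells of peripheral blood (PNCB) and the fat globules of milk (MFG), which leave the mammary cell wrapped in its membrane and can enclose some of its cytoplasm, so that 24 arrays formed 6 groups of 4. Each sample was labelled with Cy5 and hybridised against the same Cy3-labelled pool of blood RNA from 7 goats in lactation 4, of which 4 were PWI and 3 PFI. No dyes were swapped, so any dye effect is part of every ratio. The design text says that samples were taken after the end of lactation but does not say which ones. The array carries cattle sequences, and how well each matches its goat transcript was not tested, so the levels of different probes are not compared. Each group lay on a slide of its own, the MFG arrays were scanned on another day than the others, and milk and blood RNA were extracted with different kits. Slide and breed therefore cannot be told apart within a source, nor kit and source between milk and blood.

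Lactose is made in the Golgi of the mammary secretory cell. B4GALT1, which in most cells adds galactose to the sugar chains of glycoproteins, is turned by LALBA into lactose synthase, which joins galactose to free glucose. Glucose enters the cell through transporters such as GLUT1, and UGP2 makes the UDP-glucose from which UDP-galactose, the other substrate, is formed. β-Lactoglobulin is a lipocalin that dominates ruminant whey, and GLYCAM1 is a mucin-like glycoprotein that milk contains as lactophorin.

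Both milk sources carried far more of the whey protein transcripts than blood. Fat globules exceeded milk cells in GLYCAM1 under every scaling tried, and in LALBA and at 1 PAEP probe with the main scaling but not with median centring. All 7 whey probes were higher in MSC than in PNCB, by 3.97 to 6.40 on the log2 scale. All 6 that could be compared were higher in MFG than in PNCB, by 4.51 to 7.91. Both ends of this range take their PWI value from 1 MFG array, that of PWI goat 2, which had a spike-in slope of 0.489. Without it neither of these probes could be compared. With background flags ignored the range was 4.25 to 7.75. In blood 1 of the 7 was well above background on all 8 arrays, 4 were so on 1 array, that of PFI goat 1, and 2 on none. For these 6 probes the differences from blood are set against background rather than a measured blood level, and they passed the filter on dim probes through the milk groups. The lactose synthesis genes differed far less between sources and followed several orders. UGP2 was highest in MFG with loess, though in MSC with median centring. SLC2A1 was highest in MSC, and B4GALT1 was 1.94 to 2.29 times higher in MSC than in PNCB. Between MSC and PNCB 17 of 17 probes passed an adjusted p of 0.05 in limma, all of them higher in MSC, where 49.6% of all tested probes passed, 22.5% as higher and 27.1% as lower. For MFG against PNCB 15 of 16 passed, all higher in MFG, against 63.9% of all probes, 25.5% as higher and 38.4% as lower. For MFG against MSC 14 of 16 passed, 9 higher and 5 lower in MFG, against 34.8% of all probes, 12.6% as higher and 22.2% as lower. The median difference over the member probes was 2.10, 2.71 and 0.65 in these comparisons, beside -0.04, -0.13 and -0.02 over all tested probes. No overlap between the arrays of the sources was seen for 14, 11 and 6 of the 17 probes, 1 of them with a single MFG value in the latter comparisons, beside 21.5%, 28.5% and 11.9% of all tested probes.

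**Figure D1:**
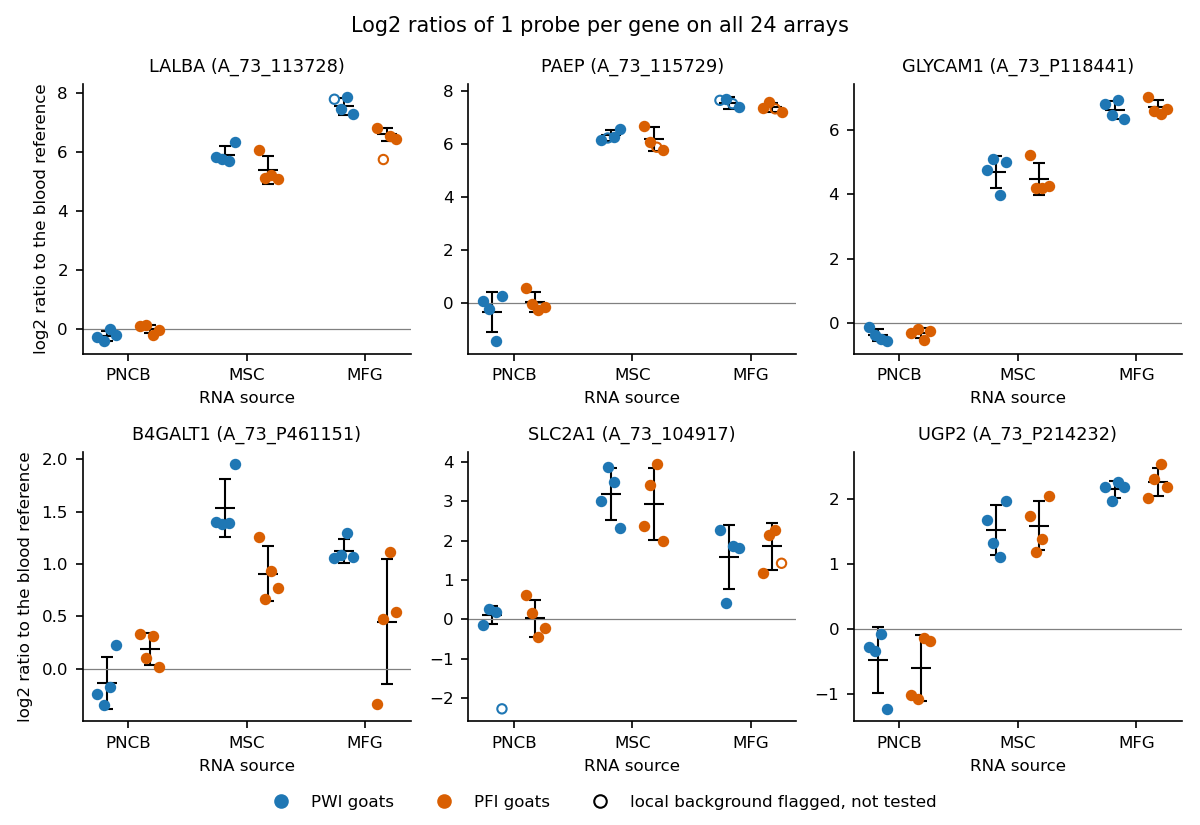
Log2 ratio of sample to blood reference (y axis) for 1 probe per gene in PNCB, MSC and MFG (x axis), with a point per array, blue for PWI and orange for PFI, and the mean and SD of each group as bars. Open circles are spots with a flagged local background, which were not tested. With the main scaling the 3 whey genes step up from PNCB to MSC to MFG, and SLC2A1 is highest in MSC. With median centring the step from MSC to MFG was 0.34 for LALBA and 0.09 for PAEP, and neither passed. The order of MSC and MFG for B4GALT1 and UGP2 depends on the scaling, B4GALT1 being 0.29 higher in MFG with Cy5 alone and UGP2 0.56 lower in MFG with median centring.

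Some facts of the arrays bear on these values. The share of probes with Cy5 well above background was 51.2% to 60.9% in MSC, 57.5% to 65.6% in PNCB and 44.1% to 84.6% in MFG, where PWI goats 2 and 4 stood apart at 84.6% and 75.3%. The slope of the spike-in probes was below 0.7 on 3 arrays, those of PWI goats 3 and 4 in PNCB and of PWI goat 2 in MFG. Of the 408 member spots 46 carried an outlier flag, in each case in the local background and 0 times in the spot itself. Of these flags 43 fell on the 272 spots of the milk arrays and 37 on the 112 whey protein spots there. Flagged spots were left out, so the brightest whey probes rest on fewer arrays than the others, and no spot was saturated. Without the MFG arrays of PWI goats 2 and 4, 12 of 13 estimable member probes passed in the comparison of MFG with PNCB, and 11 of 13 in that of MFG with MSC. With those of low slope removed these counts were 13 of 14 in both comparisons, and all 17 probes passed for MSC against PNCB in either case. Over all tested probes 17493 passed for MFG against PNCB in the main fit, and 17372 and 18515 in these 2 fits. For MFG against MSC the numbers were 9534, 10738 and 13225.

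LALBA, the protein that gives lactose synthase its specificity, was measured on most arrays by probe A_73_113728. Its log2 ratio in MSC lay between 5.10 and 6.33 with a median of 5.75 over 8 arrays. In PNCB it lay between -0.41 and 0.13 with a median of -0.10. In the 6 unflagged MFG arrays it lay between 6.44 and 7.88 with a median of 7.07. The sources did not overlap, and every unflagged MFG array was above every MSC array. With background flags ignored the 8 MFG values ran from 5.75 to 7.79 and the 8 MSC values from 4.84 to 6.08, which overlapped. The ratio was higher in MSC than in PNCB by 5.75 ± 0.14 (SE, limma adjusted p = 9.88e-18) and in MFG than in PNCB by 7.18 ± 0.15 (adjusted p = 4.19e-19). No PNCB array had this probe well above background, so these differences are bounded by background and not by a measured blood level. Its mean scaled log2 Cy5 signal was 13.97 ± 0.72 in MSC (SD, n = 8), 15.86 ± 0.57 in MFG (n = 6) and 5.94 ± 0.12 in PNCB (n = 8). On this scale LALBA was at least 259-fold higher in MSC and at least 961-fold higher in MFG. Such bounds set the mean Cy5 signal, after loess and quantile scaling of the average signal, against the higher of the dim spot and the dimmest detected probe of each blood array, and a dye bias in them cannot be told apart from signal. This scaling also uses Cy3, so these means are not those of the fits in Cy5 alone.

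The other LALBA probe, A_73_P038871, was brighter and more often flagged. Its ratios in MSC were 5.88 in PWI goat 1 and 6.11, 5.60 and 5.67 in PFI goats 1, 2 and 3. In MFG 2 arrays remained, with 8.15 in PWI goat 2 and 7.53 in PFI goat 4. The PNCB arrays lay between -0.76 and 0.87 with a median of -0.02, far below both. With the background flags ignored the 8 MSC values ran from 5.36 to 6.12 and the 8 MFG values from 7.52 to 8.11, again without overlap. MFG exceeded MSC by 2.002 ± 0.33 at this probe (adjusted p = 0.000423) and by 1.43 ± 0.15 at A_73_113728 (adjusted p = 3.91e-07). With the scanner's own log ratio the former was 1.90 and did not pass. With median centring of each array these differences were 0.59 and 0.34 and did not pass, while the median of all probes then stood at -0.61. In Cy5 alone the difference was 0.09 at A_73_P038871, which did not pass, and 1.36 at A_73_113728, which did.

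PAEP, the β-lactoglobulin gene, had 3 probes that differed much in their ratios. At A_73_115729 the 6 unflagged MSC arrays lay between 5.76 and 6.67 with a median of 6.19. The 8 PNCB arrays lay between -1.46 and 0.56 with a median of -0.11. The 5 unflagged MFG values were 7.70 and 7.38 in PWI goats 2 and 4 and 7.35, 7.55 and 7.19 in PFI goats 1, 2 and 4. All MFG values were above all MSC values, which were above all PNCB values, where the probe was above background on 1 of 8 arrays. The difference was 6.40 ± 0.23 for MSC against PNCB (limma adjusted p = 1.29e-13), 7.62 ± 0.24 for MFG against PNCB (adjusted p = 1.34e-14) and 1.22 ± 0.26 for MFG against MSC (adjusted p = 0.00126). The last of these was 0.09 with median centring, where the median of all probes stood at -0.61, and 0.15 in Cy5 alone. It passed in neither, nor with the scanner's own log ratio (1.17) or within PWI goats (1.23).

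At A_73_P411496 PAEP was higher in MSC than in PNCB by 5.13 ± 0.15 (adjusted p = 4.59e-13), with 6 MSC arrays between 4.54 and 5.40 and 8 PNCB arrays between -0.48 and 0.47, of which 1 was above background. Only the MFG array of PWI goat 1 was unflagged there, with a ratio of 6.33, so no MFG comparison was estimated. With background flags ignored its 8 MFG values lay between 5.89 and 6.60. The probe A_73_P459006 was the 1 whey probe well above background on all 8 PNCB arrays. Its ratio was 3.63 in PWI goat 2 and 3.94, 3.81 and 3.23 in PFI goats 1, 2 and 4 in MSC, and 4.45, 3.95 and 3.89 in PWI goat 2 and PFI goats 2 and 3 in MFG. The milk sources overlapped each other and did not overlap PNCB, which lay between -1.68 and 1.57. This probe exceeded its PNCB level by 3.97 ± 0.42 in MSC (adjusted p = 2.33e-06), and MFG exceeded PNCB by 4.51 ± 0.44 (adjusted p = 5.03e-07), while MFG against MSC, at 0.54 ± 0.52, did not pass (adjusted p = 0.471).

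GLYCAM1, the lactophorin gene, was measured on nearly all arrays. At A_73_P118441 the ratio lay between 3.99 and 5.21 in MSC with a median of 4.51, between -0.55 and -0.11 in PNCB with a median of -0.34, and between 6.34 and 7.04 in MFG with a median of 6.64, over 8 arrays each. The ranges were far apart, and every MFG array was above every MSC array. With background flags ignored MSC ran from 3.08 to 5.21 and MFG from 4.96 to 7.01, which overlapped. The differences were 4.94 ± 0.16 for MSC against PNCB (limma adjusted p = 1.51e-16), 7.02 ± 0.16 for MFG against PNCB (adjusted p = 9.6e-20) and 2.08 ± 0.16 for MFG against MSC (adjusted p = 8.8e-09). The probe was below that limit on all 8 PNCB arrays. Its mean log2 Cy5 signal, scaled as for LALBA, was 12.13 ± 0.59 in MSC, 14.59 ± 0.15 in MFG and 5.94 ± 0.12 in PNCB (SD, 8 arrays each). On this scale GLYCAM1 was at least 73.0-fold higher in MSC and at least 402-fold higher in MFG.

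At the other GLYCAM1 probe, A_73_114339, MSC lay between 4.72 and 5.24, PNCB, above background on 1 of 8 arrays, between -0.40 and 0.41 and the 6 unflagged MFG arrays between 6.53 and 7.19. MFG exceeded MSC by 1.76 ± 0.12 (adjusted p = 7.38e-09), which ranked 52 among the 27383 differences from the highest down. For A_73_P118441 this rank was 33. GLYCAM1 was the whey gene whose excess in MFG over MSC passed at every probe under each scaling tried, with 0.70 and 0.99 as the lowest and highest differences after median centring and 0.89 and 2.15 in Cy5 alone.

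The reference channel bears on all whey values. The Cy3 pool was the same on every array, yet Cy3 at the whey spots was brighter on milk arrays than on blood arrays. At PAEP A_73_P459006 the median Cy3 intensity was 135 scanner units in PNCB, 3030 in MSC and 7087 in MFG, with ranges of 118 to 326, 2456 to 3645 and 6745 to 8636. At LALBA A_73_P038871 it was 75.5, 1099 and 846. Over the 7 whey probes the median Cy3 was 1.44 to 22.4 times higher in MSC than in PNCB and 2.70 to 52.5 times higher in MFG, beside 0.983 and 1.29 over all tested probes. In Cy5 the median at A_73_P038871 was 46.8 in PNCB, 235586 in MSC and 329314 in MFG. Cy3 at the whey probes was 0.257% to 2.76% of Cy5 in MFG, and the log ratios are smaller than the differences in Cy5. At the B4GALT1 probes Cy3 was 1.99 to 2.38 times higher in MFG than in PNCB. In Cy5 alone, MSC exceeded PNCB at LALBA A_73_P038871 by 11.48 on the log2 scale in place of 5.91, and at A_73_113728 by 8.63 in place of 5.75. The cause of the Cy3 signal was not tested.

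**Figure D2:**
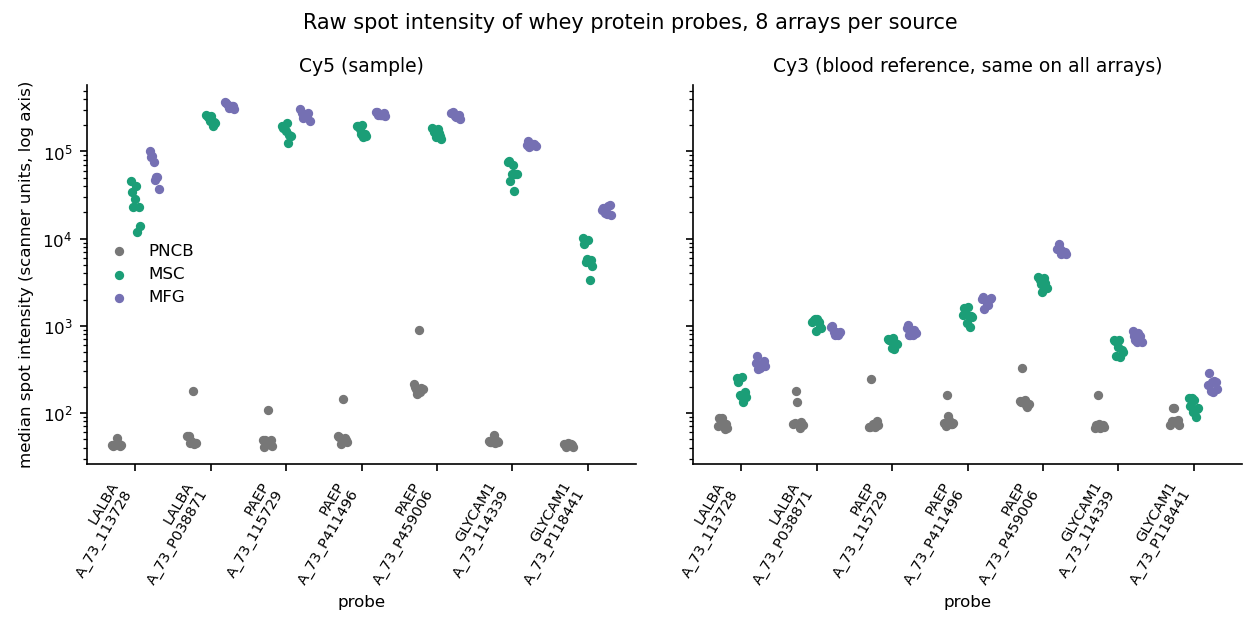
Median spot intensity in scanner units (y axis, log scale) of the 7 probes of LALBA, PAEP and GLYCAM1 (x axis) in the Cy5 sample channel (left) and the Cy3 reference channel (right), with a point for each of 8 arrays per source. Cy5 separates blood from both milk sources at every probe, and Cy3, which held the same reference RNA throughout, is also brighter on milk arrays, up to a median of 7087 in MFG against 135 in PNCB at PAEP A_73_P459006.

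One blood array differed from the other 7 in these transcripts. On the PNCB array of PFI goat 1, 5 of 7 whey probes and 12 of 13 casein probes were well above background. On each of the other PNCB arrays 1 whey probe was, and 0 or 1 casein probe. Its Cy5 intensity at PAEP A_73_P459006 was 900 scanner units, while the others lay between 166 and 214. At LALBA A_73_P038871 it was 181, beside 44 to 54. Of 16 probes of mammary epithelial genes 11 were above background on it and 10 on each other PNCB array. Without this array all counts of passing member probes between sources were the same, at 17, 15 and 14.

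B4GALT1, the catalytic part of lactose synthase, was well above background on all 24 arrays at each of its 3 probes. At the brightest, A_73_P461151, MSC lay between 0.66 and 1.95 with a median of 1.32. PNCB lay between -0.34 and 0.33 with a median of 0.06. MFG lay between -0.34 and 1.29 with a median of 1.06, and its lowest array was that of PFI goat 1. MSC did not overlap PNCB, and MFG overlapped both. B4GALT1 was higher in MSC than in PNCB by 1.19 ± 0.15 (limma adjusted p = 9.45e-07) at this probe, by 0.996 ± 0.17 at A_73_P035196 (adjusted p = 3.34e-05) and by 0.96 ± 0.20 at A_73_P107856 (adjusted p = 0.000521). Within PFI goats alone A_73_P035196 (0.45) and A_73_P107856 (0.46) did not pass, nor did the latter with the scanner's log ratio (0.89). For MFG against PNCB the 3 probes gave 0.76, 0.53 and 0.76 and all passed (adjusted p = 0.000169, 0.00801 and 0.00206), but with median centring they gave -0.66, -1.07 and -0.80 and passed as lower. The median of all probes then stood at -0.82, so relative to it the B4GALT1 probes lay between -0.25 and 0.16. Within PFI goats alone these differences were 0.26, 0.07 and 0.55, and none passed. With the scanner's log ratio A_73_P035196 (0.45) and A_73_P107856 (0.75) did not pass, and with background flags ignored A_73_P035196 (0.47) did not.

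Between MFG and MSC B4GALT1 was lower in MFG, with differences of -0.44 ± 0.15 at A_73_P461151 and -0.47 ± 0.16 at A_73_P035196 (adjusted p = 0.0305 and 0.0264), whereas Cy5 alone gave 0.29 at the former and -0.02 at the latter, and neither passed. At A_73_P107856 the difference was -0.20 ± 0.20 and did not pass (adjusted p = 0.489). With median centring all 3 probes passed as lower in MFG, with differences of -1.77 to -1.47, where the median of all probes stood at -0.61. The calls depended on single goats and on the processing. Neither probe passed with the scanner's log ratio (-0.36 and -0.45), within PWI goats (-0.41 and -0.55), within PFI goats (-0.46 and -0.38) or with background flags ignored (-0.38 and -0.40). With slide as a random block, each group being on its own slide, neither passed (adjusted p = 0.0998 and 0.0735). That fit held source means without breed means, and its correlation within a slide was 0.0139. Without PFI goat 1 the differences at the passing probes were -0.25 and -0.27 and did not pass. They also did not pass without PWI goat 1 (-0.45 and -0.49), at A_73_P461151 without PWI goat 4 (-0.36) and at A_73_P035196 without PWI goat 2 (-0.44).

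SLC2A1, which encodes the glucose transporter GLUT1, was highest in MSC at all 3 probes. At A_73_104917, its brightest probe, the 8 MSC ratios lay between 1.98 and 3.94 with a median of 3.21. The 7 unflagged PNCB arrays lay between -0.46 and 0.61 with a median of 0.16, and the 7 unflagged MFG arrays between 0.41 and 2.28 with a median of 1.86. MSC did not overlap PNCB, while MFG overlapped both, its lowest value being that of PWI goat 2. The difference was 2.99 ± 0.32 for MSC against PNCB (limma adjusted p = 1.06e-07), 1.66 ± 0.33 for MFG against PNCB (adjusted p = 0.00016) and -1.33 ± 0.32 for MFG against MSC (adjusted p = 0.00245). With median centring MFG against PNCB was 0.03 and did not pass, where the median of all probes stood at -0.82.

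The other SLC2A1 probes gave the same order of MSC over MFG. MSC lay between 0.76 and 2.66 at A_73_P033201 and between 0.23 and 1.85 at A_73_P346251. MFG lay between 0.16 and 1.57 and between 0.02 and 0.63, and PNCB between -0.31 and 0.59 and between 0.10 and 0.70. MFG was lower than MSC, with differences of -1.01 ± 0.24 and -0.85 ± 0.18 (adjusted p = 0.00187 and 0.000833), and lower at all 3 probes under every scaling tried. Within PFI goats alone none of the 3 passed, at -1.07, -0.70 and -0.75. MSC was higher than PNCB by 1.86 ± 0.24 and 0.79 ± 0.18 (adjusted p = 8.98e-07 and 0.000929). MFG against PNCB passed at A_73_P033201 (0.84 ± 0.24, adjusted p = 0.00373), though not within PWI goats (0.63), with background flags ignored (0.53) or with flagged spots left out only after loess (0.49). It did not pass at A_73_P346251 (-0.06 ± 0.18, adjusted p = 0.801). The latter probe was dim, with a median Cy5 intensity of 65.8 scanner units in MFG and 63.8 in PNCB, and was above background on 6 of 8 MFG arrays.

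UGP2, which makes UDP-glucose, was higher in both milk sources at all 4 probes. At A_73_P214232, which had no flagged spot, MSC lay between 1.12 and 2.05 with a median of 1.54. PNCB lay between -1.23 and -0.07 with a median of -0.30. MFG lay between 1.97 and 2.54 with a median of 2.19. Blood did not overlap milk, and the upper MSC arrays overlapped MFG. The difference from PNCB was 2.10 ± 0.18 for MSC (limma adjusted p = 2e-09), a 4.28-fold ratio, and 2.75 ± 0.18 for MFG (adjusted p = 9.28e-12), a 6.71-fold ratio. Over the 4 probes MSC exceeded PNCB by 1.62 to 2.10 and MFG exceeded PNCB by 2.27 to 2.75. These differences from blood kept their sign and passed under all scalings tried.

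MFG exceeded MSC at all 4 UGP2 probes by 0.65 to 0.70, with adjusted p from 0.00583 to 0.0258, but with median centring the differences were -0.64, -0.56, -0.55 and -0.32, and none passed. Relative to the median of all probes they lay between 0.67 and 0.72 with loess and between -0.03 and 0.29 with median centring. At A_73_P287576 the call was lost without PWI goat 2 (0.57), PFI goat 2 (0.59) or PFI goat 3 (0.58). At A_73_P254271 it was lost without PWI goat 1 (0.61), PWI goat 3 (0.50), PFI goat 2 (0.59) or PFI goat 3 (0.55), in Cy5 alone (0.41), with background flags ignored (0.39) and with flagged spots left out only after loess (0.33). Within PWI goats the call was lost at A_73_P287576 (0.65), A_73_P214232 (0.63) and A_73_P254271 (0.36), and within PFI goats at A_73_P214232 (0.67) and A_73_104559 (0.71). A_73_104559 gave 0.69 with background flags ignored, at an adjusted p of 0.0505. The MFG array of PWI goat 2 read 0.65 at A_73_P254271, where the remaining ones of MFG gave 1.81 to 2.55.

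**Figure D3:**
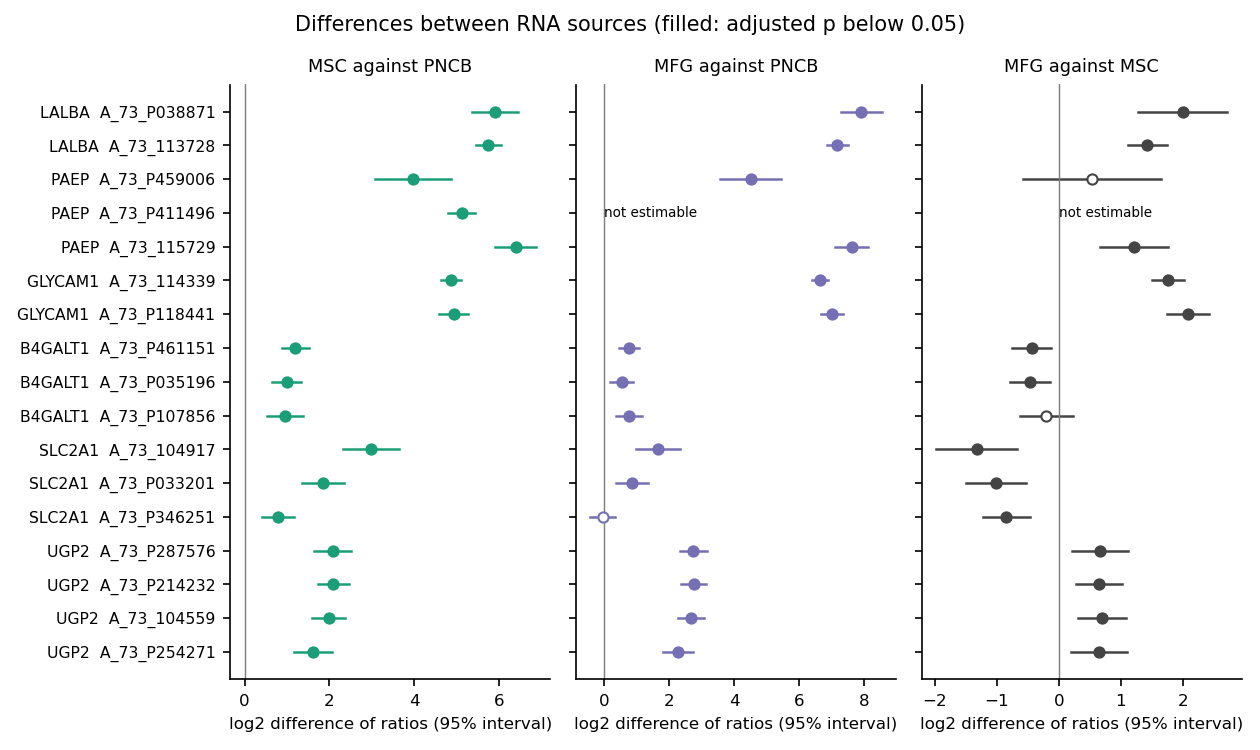
Difference in log2 ratio between sources (x axis) with its 95% interval for each of the 17 probes (y axis), filled where limma's adjusted p was below 0.05. The whey probes lie between 3.97 and 7.91 against blood, SLC2A1 lies below 0 and the passing whey probes above 0 for MFG against MSC, while UGP2 in that panel and B4GALT1 for MFG against PNCB lie above 0 with loess but below 0 with median centring.

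Other genes of milk protein and lactose synthesis were counted from lists of cattle transcripts whose symbols are background knowledge, since the files do not pair them with symbols. The caseins CSN1S1, CSN1S2 and CSN3, the proteins that form the milk micelle, had 13 probes. In PNCB these were well above background on 0 to 2 of 8 arrays, and they passed the filter on dim probes through the milk groups. Their differences from blood are therefore set against background rather than a measured blood level. All 13 were higher in MSC than in PNCB, with a median difference of 6.54, and all 10 that could be estimated were higher in MFG than in PNCB (8.88) and than in MSC (1.89). The excess over MSC held for 2 of 10 probes with median centring, where the median of all probes stood at -0.61, and for 1 of 10 in Cy5 alone. LTF, the iron-binding whey protein lactoferrin, had lower excesses. All 4 of its tested probes exceeded their PNCB level in both milk sources, with medians of 1.90 in MSC and 1.86 in MFG, and 0 of 4 passed for MFG against MSC. With median centring 1 of 4 was higher in MFG than in PNCB, where the median of all probes stood at -0.82. In that setting 4 of 4 were lower in MFG than in MSC, where this median stood at -0.61. At the brightest LTF probe, A_73_116655, MFG differed from MSC by -0.21 ± 0.24 with the main scaling (adjusted p = 0.544). No probe of ALB, serum albumin, passed the filter on dim probes.

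Glucose uptake and trapping was covered by SLC2A3 (GLUT3), SLC2A4 (GLUT4) and HK1 (hexokinase 1), with 8 tested probes. Of these 6 were higher and 0 lower in MSC than in PNCB, 1 was higher and 5 lower in MFG than in PNCB, and 1 was higher and 7 lower in MFG than in MSC. SLC2A3 was lower than in MSC at 6 of 6 probes, and at 5 or 6 under each other scaling. At its brightest probe, A_73_P425526, the mean ratio in MFG was -3.72 ± 0.94, that in MSC 0.92 ± 1.06 and that in PNCB -0.37 ± 0.28 (SD, 8 arrays each). MFG differed from MSC by -4.64 ± 0.40 (SE, limma adjusted p = 2e-08). The MSC spread of this transporter was wide, from -0.59 to 2.09. The 1 tested SLC2A4 probe, A_73_P102656, was the exception in MFG, being higher than PNCB by 1.89 ± 0.26 (adjusted p = 1.24e-06). HK1 was lower in MFG, with a difference of -1.42 ± 0.25 from PNCB (adjusted p = 3.34e-05), and in MSC differed from PNCB by 0.29 ± 0.26 (adjusted p = 0.364).

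PGM1 and GPI, which interconvert sugar phosphates on either side of glucose 6-phosphate, had 6 tested probes. Of these 5 were higher in MSC than in PNCB with 0 lower, 2 were higher in MFG than in PNCB with 0 lower, and 2 were lower in MFG than in MSC with 0 higher. The 2 probes higher in MFG than in PNCB were both of PGM1, at 0.56 and 0.55, but with median centring 2 PGM1 probes were lower there, with a median of -1.11 over its 3 probes. The median of all probes then stood at -0.82. The 2 lower in MFG than in MSC were both of GPI, at -1.25 and -0.99. UGP2, the next step after PGM1, had 4 of 4 probes higher in both milk sources. The genes of the later steps from UDP-glucose to UDP-galactose and its Golgi transport were not analysed here.

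Markers of cell types were counted in the same way. All 16 probes of mammary epithelial genes (KRT8, KRT18, EPCAM, MFGE8, BTN1A1, XDH and PLIN2) were higher in MSC and in MFG than in PNCB, and 11 of 16 were higher in MFG than in MSC. With median centring these counts were 15, 14 and 1, and 2 were lower in MFG than in MSC. The median of all probes then stood at -0.17, -0.82 and -0.61 in these comparisons. With the main scaling the mean log2 ratio of the epithelial probes per array ran from 1.65 to 2.86 in MSC, from -0.34 to -0.04 in PNCB and from 2.10 to 3.55 in MFG. Of 8 probes of the leukocyte genes ITGB2 and CD14, 6 were lower in MSC, all of ITGB2, and 7 in MFG than in PNCB, with mean ratios per array of -1.36 to -0.27 in MSC, -0.25 to 0.55 in PNCB and -2.72 to -1.44 in MFG. ITGB2, the leukocyte integrin β2 chain, was lower in both milk sources at its brightest probe, A_73_104443, with differences from PNCB of -2.21 ± 0.22 in MSC and -4.58 ± 0.22 in MFG (limma adjusted p = 2.37e-08 and 5.1e-14). The probes of CD14, a monocyte receptor for bacterial lipopolysaccharide, differed from PNCB by 0.25 (A_73_116002) and 0.23 (A_73_P108626) in MSC (adjusted p = 0.29 and 0.272), and in MFG by -0.78 (adjusted p = 0.00133) and -0.10 (adjusted p = 0.604). Of the epithelial probes 3 of KRT8, 1 of BTN1A1 and that of XDH were well above background on 0 of 8 PNCB arrays, and the leukocyte probes were above background on all 24 arrays. The share of each cell type in the RNA cannot be told apart from the amount of a transcript per cell, and the part of cell type in the member results was not tested. The erythroid genes HBB and HBA had 1 probe each, of which that of HBB was lower in MSC (-2.44) and in MFG (-2.38) than in PNCB, and that of HBA did not pass.

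The study also set the breeds side by side within each source, with 4 goats each. No member probe passed in any source. The counts were 0 of 17 in MSC, where 0% of all tested probes passed, 0 of 17 in PNCB (0.0109%) and 0 of 16 in MFG (0.0146%). The test of a breed difference that varies between sources called 0 of 16 (0.0146%). At an unadjusted p below 0.05 the member counts were 2, 1 and 2 in MSC, PNCB and MFG and 3 for the interaction, beside 4.38%, 3.56%, 8.58% and 6.13% of all tested probes. A p above the threshold does not show equal levels. On simulated arrays made from each probe's mean and spread, limma recovered 47% to 49% of breed differences of 1 and 93% to 95% of those of 2 on the log2 scale over 27411 probes. False calls were 6 of 146 in MSC, 5 of 147 in PNCB and 15 of 158 in MFG. Recovery at the member probes alone was not computed. Some spread more, such as SLC2A1 in MSC with an SD of 0.60 to 0.80 beside a median of 0.20 over all tested probes, and some whey probes kept fewer arrays.

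The widest separation of breeds among probes with over 2 values per breed was that of LALBA in fat globules. At A_73_113728 the MFG ratios of PWI goats 2, 3 and 4 were 7.47, 7.88 and 7.30, and those of PFI goats 1, 3 and 4 were 6.83, 6.54 and 6.44. All PWI values were above all PFI values. The arrays of PWI goats 2 and 4 are those that stood apart, with 84.6% and 75.3% of probes above background. That of PWI goat 2 also had a low spike-in slope, of 0.489. PWI exceeded PFI by 0.95 ± 0.20 (SE; 95% interval 0.48 to 1.42), with an unadjusted p of 0.0021 and a limma adjusted p of 0.469, so the difference did not pass. With background flags ignored the missing arrays read 7.79 in PWI goat 1 and 5.75 in PFI goat 2. In MSC the same probe gave 5.82, 5.78, 5.71 and 6.33 in PWI and 6.09, 5.11, 5.24 and 5.10 in PFI, which overlapped through PFI goat 1, with a difference of 0.53 ± 0.24 (adjusted p = 0.988). With background flags ignored the MSC values of PWI goats 3 and 4 were 4.84 and 5.21, and the breed difference was 0.03. In PNCB the difference was -0.22 ± 0.15 (adjusted p = 0.972). The other LALBA probe had 1 value per breed in MFG and differed by 0.62.

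B4GALT1 gave higher PWI means in MSC and lower ones in PNCB, and none passed. At A_73_P461151 the MSC ratios were 1.40, 1.38, 1.40 and 1.95 in PWI and 1.26, 0.66, 0.94 and 0.78 in PFI, which did not overlap. The difference was 0.62 ± 0.17 (unadjusted p = 0.00622, limma adjusted p = 0.988). In PNCB the ratios were -0.24, -0.34, -0.18 and 0.23 in PWI and 0.33, 0.10, 0.31 and 0.01 in PFI, a difference of -0.32 ± 0.17 (adjusted p = 0.972). In MFG they were 1.05, 1.08, 1.29 and 1.06 in PWI and -0.34, 0.48, 1.12 and 0.54 in PFI, a difference of 0.67 ± 0.27 (adjusted p = 0.543). The breeds overlapped in both PNCB and MFG. The interaction gave an unadjusted p of 0.00521 (adjusted p = 0.768) at this probe and of 0.00309 (adjusted p = 0.705) at LALBA A_73_113728, and neither passed.

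For the other genes no breed difference in MSC had an unadjusted p below 0.05. They ranged from -0.03 to 0.26 for PAEP, from 0.14 to 0.24 for GLYCAM1, from 0.10 to 0.34 for SLC2A1 and from -0.21 to -0.07 for UGP2. The widest 95% interval was that of SLC2A1 A_73_104917, from -0.82 to 1.32. In MFG the UGP2 probe A_73_P254271 gave -0.68 with an interval from -1.39 to 0.03, in which the low-slope array of PWI goat 2 took part, and the other 3 UGP2 probes lay between -0.23 and -0.10.

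**Figure D4:**
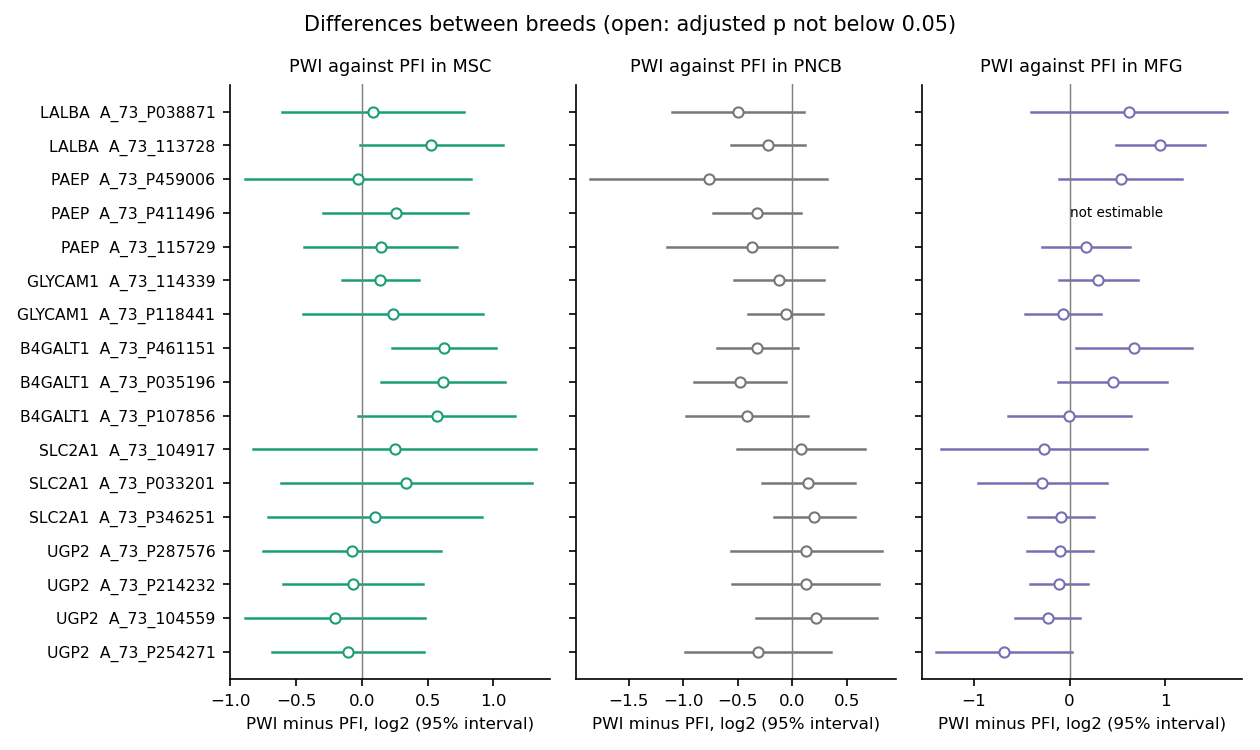
PWI minus PFI in log2 ratio (x axis) with 95% intervals for the 17 probes (y axis) in MSC, PNCB and MFG. All points are open because no adjusted p fell below 0.05; the LALBA probe A_73_113728 in MFG, at 0.95, is the farthest from 0 of the probes whose interval leaves 0 out.

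Among the members in MSC, goats of one group differed most in SLC2A1. The SD between goats within breeds in MSC was 0.60 to 0.80 over its 3 probes, beside 0.27 to 0.36 for B4GALT1, 0.38 to 0.50 for UGP2 and a median of 0.20 over all tested probes. In PNCB the SD was 0.20 to 0.37 for SLC2A1 and was largest at PAEP A_73_P459006, at 0.87. At A_73_104917 PWI goats 1 to 4 gave 3.00, 3.87, 3.49 and 2.33, and PFI goats 1 to 4 gave 2.37, 3.41, 3.94 and 1.98. PWI goat 4 and PFI goats 1 and 4 were thus low, and the same 3 goats were the lowest at both other probes. With background flags ignored PWI goat 3 fell from 2.36 to 0.99 at A_73_P033201 and from 1.29 to 0.29 at A_73_P346251, below PFI goat 1 (1.39 and 0.76). The probes of SLC2A1 correlated across the 8 goats with r of 0.92 to 0.98, and of 0.83 to 0.97 with background flags ignored, a description of probes on shared arrays. UGP2 varied in the other direction, with PFI goat 4 at 2.05 and PWI goat 4 at 1.98 as the highest MSC arrays of A_73_P214232 and PWI goat 3 at 1.12 as the lowest.

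Across the 8 MSC arrays SLC2A1 (A_73_P033201) and UGP2 (A_73_P214232) had a Pearson r of -0.883 (exact permutation p = 0.00508, adjusted p = 0.102 over 40 relations) and a Spearman rho of -0.762 (exact permutation p = 0.0368, adjusted p = 0.294). The r was -0.843 without the 2 arrays farthest from the median of SLC2A1, and -0.888 and -0.947 within PWI and within PFI, each of which is 1 slide. LALBA (A_73_113728) and B4GALT1 (A_73_P461151), the partners of lactose synthase, had r of 0.930 in MSC (exact permutation p = 0.00268, adjusted p = 0.102) and rho of 0.810 (exact permutation p = 0.0218, adjusted p = 0.294). Without the 2 arrays farthest from the median of LALBA r was 0.852, and it was 0.987 and 0.946 within PWI and PFI. The r over the 8 arrays with background flags ignored was -0.573 for SLC2A1 and UGP2, and -0.354 and -0.944 within PWI and PFI. For LALBA and B4GALT1 it was 0.293, and -0.04 and 0.938 within PWI and PFI. Neither relation passed after adjustment, and the points of a relation share the array and its scaling.

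In PNCB the UGP2 probes disagreed. At A_73_P214232 PWI goat 4 and PFI goats 1 and 2 read -1.23, -1.01 and -1.08, and the other 5 goats lay between -0.33 and -0.07. A_73_P287576 gave the same 3 goats as lowest, at -1.29, -1.01 and -1.03, and r between these probes was 0.991. The array of PWI goat 4 had the lowest spike-in slope of the PNCB arrays (0.567) and 21.1% of its spots flagged. With background flags ignored, which alters the loess curve, PWI goat 4 read -0.22 and -0.31 at these probes and was no longer low, PFI goat 2 read -0.69 and -0.66, and PFI goat 1 still read -1.01 at both. A_73_P254271 instead read -1.43 in PWI goat 3, also an array of low spike-in slope, and between -0.22 and 0.14 in the others, with r of -0.322 to A_73_P214232.

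**Figure D5:**
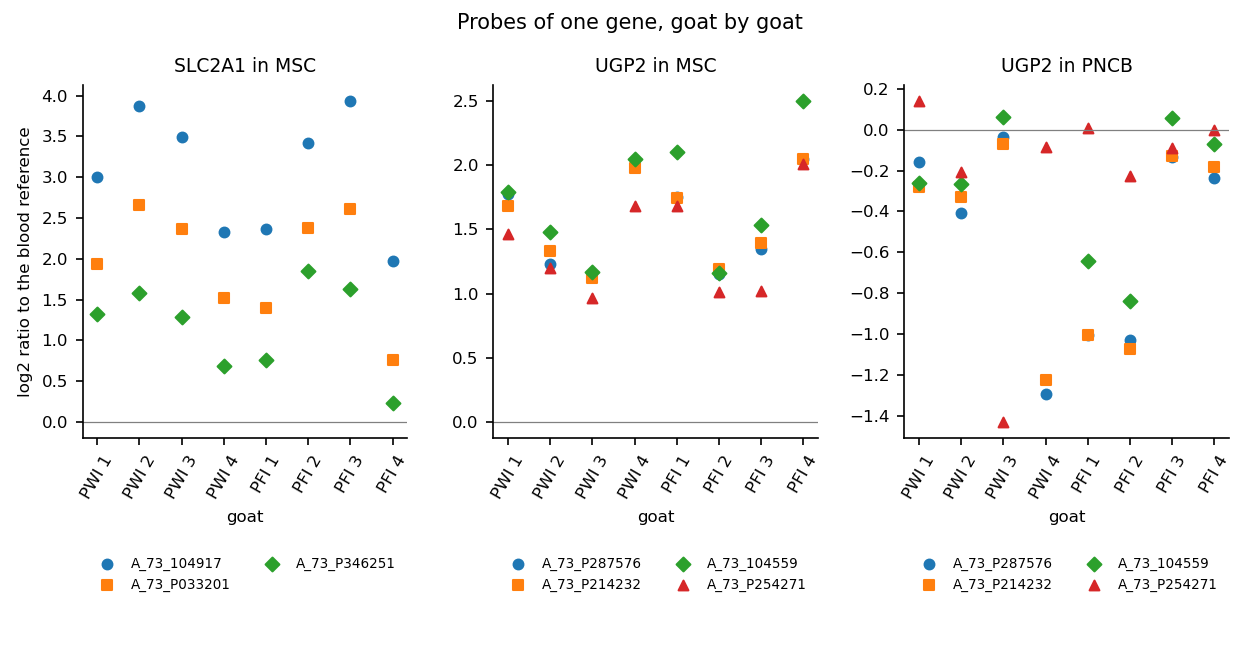
Log2 ratio (y axis) of each probe of SLC2A1 in MSC, UGP2 in MSC and UGP2 in PNCB for each goat (x axis), with a symbol per probe; flagged spots are not drawn. SLC2A1 probes are all low in PWI goat 4 and PFI goats 1 and 4, and in PNCB the UGP2 probe A_73_P254271 is low in PWI goat 3 at -1.43, where the other UGP2 probes are not.

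The probes of other transcripts whose pattern over arrays was most like that of the brightest member probes were looked up for LALBA, GLYCAM1 and SLC2A1. For LALBA A_73_P038871, over the 14 arrays with a value, these were a CSN1S1 probe (A_73_P050936, r = 0.997) and a CSN3 probe (A_73_P107731, r = 0.995). Within sources the r was 0.905 and 0.991 in MSC, where LALBA had 4 values, and 0.741 and 0.853 in PNCB. In MFG, with 2 LALBA values, none was computed. Each of these probes was above background on 1 PNCB array. For GLYCAM1 A_73_114339 over 22 arrays they were probes of NM_001024569 (A_73_P347736, r = 0.991) and NM_001075120 (A_73_108260, r = 0.988). Within sources the r of these probes was 0.641 and 0.766 in MSC, 0.713 and -0.504 in PNCB and -0.523 and -0.878 in MFG. For SLC2A1 A_73_104917 over 22 arrays they were probes of NM_001103348 (A_73_109214, r = 0.968) and NM_001015553 (A_73_116037, r = 0.968). Within sources the r was 0.979 and 0.933 in MSC, 0.935 and 0.766 in MFG, and -0.332 and 0.642 in PNCB. These transcripts have no symbol in the files.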

How the data were processed

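Per the file headers, the deposited scanner files give Cy5 and Cy3 intensity per spot and around it, from Agilent Feature Extraction 10.7.3.1 on a cattle design (bosTau6), with flags (other values) and no normalization. The authors' deposited log10 ratios equal the software's own (largest difference 0). With R 4.3.3 and limma 3.58.1, spots with any outlier flag were removed, the background was corrected with normexp (offset 50), ratios were normalized within arrays by loess, and spots of a probe were averaged. The 27411 probes well above background in Cy5 on all arrays of at least 1 group were tested. Sources were compared in 1 limma fit of 24 arrays and 6 group means, breeds within a source on 8 arrays, and the interaction by an F-test, with Benjamini-Hochberg adjustment over all probes and a threshold of 0.05. The sequence was tested on simulated data. All probes of the 6 transcripts are described, and the brightest probe is the one with the highest mean Cy5. In the plot of values by array and in the relations between genes, a gene is shown by the probe with most unflagged arrays, the brighter where tied, and SLC2A1 in the plot by its brightest; this departs from the brightest-probe rule and was chosen after flags were seen. Symbols of the 6 members and of the lists come from cattle transcript ids, of which 0 of 26748 matched the goat gene table (ARS1.2). The members and lists were chosen with earlier results of these data known.

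The design text names 8 goats and 3 sources, so same-numbered arrays of a breed were read as the same goat. Over 11555 probes the deviations of such arrays from their group means correlated between -0.267 and 0.317, above 0.1 in 9 of 24 pairs. With goat as a block 17, 16 and 15 member probes passed in the comparisons MSC-PNCB, MFG-PNCB and MFG-MSC. A breed comparison has 1 array per goat, so there the block was the goat number, which pairs different goats of PWI and PFI. With it 0 member probes passed in each breed comparison. The arrays of a group come from different goats, with 1 array per goat and source. Fold and ratio always refer to differences on the log2 scale, and the number of arrays limits precision.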

Additional observations from a re-analysis of the deposited data

Results flagged for a closer look

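Of 74 groups of 4 member values 8 held an array far from the other 3 by Dixon's criterion, where chance gives about 3.7. PFI goat 1 accounted for 5 of them. In MSC it was highest at LALBA A_73_113728 (6.09, others 5.10 to 5.24), at GLYCAM1 A_73_P118441 (5.21, others 4.19 to 4.27) and at B4GALT1 A_73_P107856 (1.59, others 0.53 to 0.62). In PNCB it was highest at PAEP A_73_P459006 (1.57, others -0.52 to -0.27) and at PAEP A_73_P411496 (0.47, others -0.07 to -0.01). Among PWI goats, B4GALT1 A_73_P461151 was highest in MSC in goat 4 (1.95, others 1.38 to 1.40) and in MFG in goat 3 (1.29, others 1.05 to 1.08). UGP2 A_73_P254271 was highest in MFG in PFI goat 3 (2.55, others 2.30 to 2.33).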

How the results depend on the processing

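The 3 counts between sources and the 4 of breed and interaction were recomputed under each alternative. Averaging the probes of a transcript left 6 values, of which 6 passed between MSC and PNCB, 6 between MFG and PNCB and 5 between MFG and MSC. For MFG against MSC the count of 14 fell to 8 with median centring, 9 with Cy5 alone, 9 within PWI and 7 within PFI goats. Over all tested probes the count was 9534 of 27383 in the main fit, and 18209, 14031, 3369 and 9485 in these fits. Leaving out each goat in turn gave 0 for breeds and interaction in each case. For MSC against PNCB, MFG against PNCB and MFG against MSC it gave 16 to 17, 13 to 15 and 10 to 13. Some of this range came from probes left with no value in a group. Of the passing probe results between sources 8 recomputed values had the other sign. With median centring B4GALT1 in MFG against PNCB was -0.66 (A_73_P461151), -1.07 (A_73_P035196) and -0.80 (A_73_P107856), and UGP2 in MFG against MSC was -0.64 (A_73_P287576), -0.56 (A_73_P214232), -0.55 (A_73_104559) and -0.32 (A_73_P254271). With Cy5 alone B4GALT1 A_73_P461151 in MFG against MSC was 0.29. The cause was not tested. Among probe results that passed, 3 of 406 recomputed values did not pass between MSC and PNCB, 11 of 352 between MFG and PNCB, where 3 more passed with the other sign, and 52 of 330 between MFG and MSC. Among those that did not pass, the sign turned in 8 of 24 values for MFG against PNCB, 3 of 45 for MFG against MSC, and 29 of 355, 28 of 357 and 31 of 328 for the breeds in MSC, PNCB and MFG. The replicate block, with goat across sources, gave 17, 16 and 15 calls, where PAEP A_73_P411496 became estimable in MFG. Slide as a random block, in a fit of source means without breed means, gave 17, 16 and 13. With only background flags ignored, chosen after seeing the data like the fits without low-slope arrays and without the PNCB array of PFI goat 1, the counts were 17, 14 and 11. Over all tested probes 10118, 13081 and 4682 then passed, beside 13585, 17493 and 9534 in the main fit. Breed counts were 0 in each of these fits that held the breed comparisons, where the replicate block paired PWI and PFI goats of the same number. In blood LALBA A_73_113728 and GLYCAM1 A_73_P118441 were above background on no array and 4 other whey probes on 1 of 8, so that signal over background limits all their differences from blood.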
